A study of Mus musculus with 6 samples.

Results

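The miRNAs described here are miR-150, the 2 arms of miR-342 (miR-342-3p and miR-342-5p) and the miR-181 forms miR-181a and miR-181c, which are best known from lymphocytes and were read in mouse monocytes. They were chosen by assay name (mmu-miR-150, mmu-miR-342-3p, mmu-miR-342-5p, mmu-miR-181a and mmu-miR-181c, written without the species prefix from here on), and 5 of the 750 miRNA assays bear these names, all 5 on the first of 2 array cards, called card A here. No assay for the main strand of another miR-181 form was listed, and an assay for the opposite strand of miR-181a-2 is not among the members. Classical Ly6C high and non-classical Ly6C low monocytes were freshly isolated from 3 DBA/1 mice, each mouse giving 1 sample of each subset, so that 6 samples were compared within mice 1, 2 and 3. No treatment or genetic change is given for these mice, and their age and the purity of the sorted subsets are not given in the sources used here. A TaqMan low-density array gave for each assay a Ct, the number of PCR cycles needed for its fluorescence to pass a set level. A Ct lower by 1 cycle stands for 1 log2 unit more template, and reactions without signal are listed at 40.

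A miRNA guides Argonaute proteins to mRNAs that pair with its seed, a short stretch near its 5′ end, and these mRNAs are then translated less or degraded. MiR-150 is abundant in mature B and T cells and represses the transcription factor c-Myb during lymphocyte development, and miR-181a tunes T-cell receptor signalling in the thymus. MiR-342 comes from an intron of *Evl* and is found in lymphoid and myeloid cells. No lymphocyte sample was measured, so enrichment in lymphocytes is background here and was not tested.

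Before the members are described, card A of 1 sample has to be set apart. On card A, the mouse 1 Ly6C high sample ranked its 127 tested assays unlike the other 5 samples, with Spearman correlations of 0.101 to 0.148 across assays, whereas the lowest among the other 5 was 0.733 (assays are not independent replicates). On the second card, card B, its correlations over 74 tested assays ran from 0.098 to 0.901, the latter with the Ly6C low sample of mouse 1. The lowest among the other 5 samples there was −0.195. MiR-223, which marks myeloid cells, was read at Ct 21.95 in mouse 2 and 16.96 in mouse 3 among the Ly6C high samples and at 18.95 to 18.97 in all 3 Ly6C low samples. In the mouse 1 Ly6C high sample, miR-223, miR-142-3p and miR-142-5p were all listed at 40, while the epithelial miR-200b had a Ct of 21.98, against 27.09 at the lowest elsewhere. The myeloid miR-223 and the pan-leukocyte miR-142-3p and miR-142-5p were thus without signal on card A of this sample. The subset means of the tested members are therefore compared with and without this sample. What set this card apart was not tested.

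MiR-342-3p was the member that separated the subsets in the other samples. Relative to the U6 small nuclear RNA of the same card, its expression on the log2 scale was −2.35 and −3.18 in Ly6C high monocytes of mice 2 and 3. In the Ly6C low samples of mice 1, 2 and 3 it was −1.19, −0.24 and −2.06. Both of these Ly6C high values were lower than any of the 3 Ly6C low values, though the nearest pair, mouse 2 Ly6C high and mouse 3 Ly6C low, were apart by less than the step of about 1 cycle in which the values were read. Within mouse 2 expression was 4.30-fold higher in the Ly6C low sample, and within mouse 3 it was 2.17-fold higher. In the mouse 1 Ly6C high sample, miR-342-3p had no signal, which places it at −17.34 and gives a within-mouse difference of −16.14 that rests on the listed Ct of 40. The samples are bulk RNA, in which fewer cells of a type and less RNA per cell cannot be told apart.

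With all samples, the mean log2 expression of miR-342-3p was −7.62 ± 8.42 (SD, n = 3 mice) in the Ly6C high group and −1.17 ± 0.91 (SD, n = 3 mice) in the Ly6C low group. In limma, with the samples taken as unpaired as in the permutation tests, the subset means differed by −6.45 (standard error 4.23, adjusted p = 0.985), and the exact 2-sided permutation test gave p = 0.1, the smallest that 3 samples against 3 allow. Without the mouse 1 Ly6C high sample, the Ly6C high mean was −2.76 ± 0.59 (SD, n = 2) and the subset means differed by −1.60 (standard error 0.97, 95% interval −4.23 to 1.04, limma adjusted p = 0.965). The exact 2-sided permutation test then gave p = 0.2, again the smallest possible.

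The opposite arm, miR-342-5p, gave a signal only in Ly6C low monocytes, and only in mice 1 and 2, at a Ct of 31 and 32. It was listed at 40 in the mouse 3 Ly6C low sample and in all 3 Ly6C high samples. With a Ct under 35 in 2 samples, where 3 were required, it was not tested. In these 2 samples its Ct lay 10.01 and 11 cycles above that of miR-342-3p from the same hairpin. Levels of different assays also depend on how well each amplifies, so this gap is no measure of the ratio of the arms. The subset difference depends on the Ct given to a reaction without signal. Within mouse 2, with the Ly6C high reaction at the listed 40, miR-342-5p was higher in Ly6C low monocytes by 4.10 on the log2 scale. With the Ly6C high reaction at 35 this became −0.90, so that the absence of signal in Ly6C high monocytes of mouse 2, where U6 was read 3.89 cycles later than in the Ly6C low sample, sets no lower bound at that limit. In mouse 1 the same values were 6.14 and 1.14, and they rest on the deviating card.

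MiR-150 differed from mouse to mouse. Its expression relative to U6 on the log2 scale was −7.32, 0.67 and −4.20 in Ly6C high monocytes of mice 1, 2 and 3. Among the Ly6C low samples the values were −1.15, −0.21 and −2.06. The Ly6C high group held both the highest value, in mouse 2, and the lowest, in mouse 1, and it overlapped the narrower Ly6C low group. Within mouse 3 miR-150 was 4.40-fold higher in the Ly6C low sample, and within mouse 2 it was 1.85-fold higher in the Ly6C high sample. The within-mouse log2 difference was −6.16 in mouse 1, on the deviating card. The difference of the means was −2.47 (standard error 2.37, limma adjusted p = 0.985), and −0.62 (standard error 1.79, 95% interval −5.47 to 4.22, limma adjusted p = 0.997) without the mouse 1 Ly6C high sample. Exact 2-sided permutation gave p = 0.4 with that sample and p = 0.8 without it.

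MiR-181a was higher in the Ly6C high sample of each mouse, by a small margin in mice 2 and 3 and by a wider one in mouse 1, where the value rests on the deviating card. Its expression relative to U6 on the log2 scale was −2.32, −3.33 and −4.21 in Ly6C high monocytes of mice 1, 2 and 3, against −5.17, −4.20 and −5.05 in their Ly6C low samples. The groups met where the lowest Ly6C high value, in mouse 3, fell just under the highest Ly6C low value, in mouse 2. The within-mouse log2 differences were 2.84, 0.87 and 0.83. Over the samples the subset means differed by 1.52 (standard error 1.43, limma adjusted p = 0.985, exact 2-sided permutation p = 0.2), and 1.03 (standard error 0.86, 95% interval −1.30 to 3.37, exact 2-sided permutation p = 0.4) without the mouse 1 Ly6C high sample. With the card mean in place of U6 the difference was 1.27. Without normalization it was −0.35, while the median of all 201 tested assays moved from −0.45 to −2.32.

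MiR-181c was read late and showed no shared direction. Its expression relative to U6 on the log2 scale was −9.36 and −9.18 in Ly6C high monocytes of mice 2 and 3 and −9.16, −8.25 and −9.99 in the Ly6C low samples of mice 1, 2 and 3. The groups overlapped, and the Ly6C high values lay between the extremes of the Ly6C low values. MiR-181c had no signal in the mouse 1 Ly6C high sample and is listed there at −17.34. Within mice 2 and 3 the log2 differences were −1.11 and 0.81. The difference of the means was −2.83 (standard error 2.61, limma adjusted p = 0.985), and −0.14 (standard error 0.92, 95% interval −2.64 to 2.36) without the mouse 1 Ly6C high sample.

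**Figure D1:**
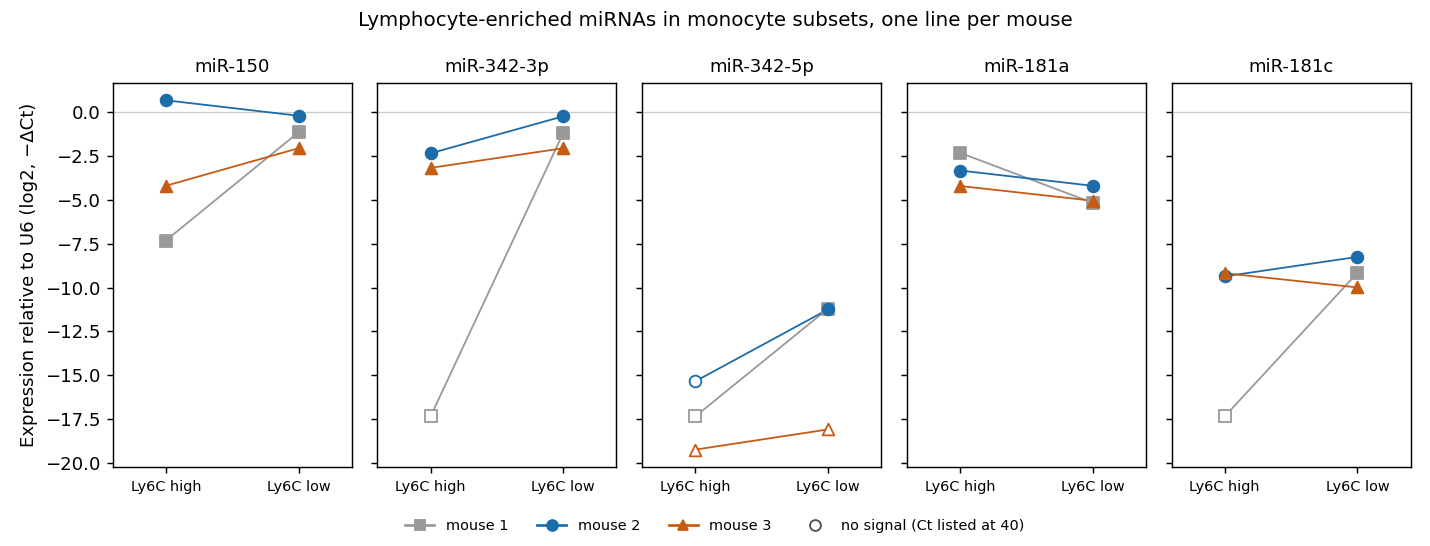
Expression of the 5 members relative to U6 (log2, −ΔCt, vertical axis) in Ly6C high and Ly6C low monocytes, 1 point per sample and 1 line per mouse, with open symbols for reactions without signal, listed at a Ct of 40. The miR-342-3p lines of mice 2 and 3 run upward to Ly6C low monocytes (from −2.35 to −0.24 and from −3.18 to −2.06), those of miR-181a run downward, and the miR-150 lines of these mice run in opposite directions.

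All assays of a card share its U6 value, so the members were also set against their card. Among the card A assays with a Ct under 35 in both samples of a mouse, the median subset difference (Ly6C high minus Ly6C low, log2) was 0.89 in mouse 2 (110 assays) and 0.83 in mouse 3 (112 assays). MiR-181a differed from that median by −0.02 in mouse 2 and by 0.01 in mouse 3. Its higher U6-scaled values in Ly6C high monocytes were therefore those of the middle of the card. MiR-342-3p lay below the median by a log2 difference of −2.99 in mouse 2, where 2 assays had a smaller difference, and of −1.95 in mouse 3, where 17 did. MiR-150 was at the median in mouse 2 (0.00) and at −2.97 from it in mouse 3, where again 2 assays had a smaller difference. MiR-181c was at −1.99 in mouse 2 and −0.02 in mouse 3. In mouse 1, where 51 assays were read in both samples, miR-150 was at −7.02 and miR-181a at 1.99 from a median of 0.86. Of the 24 member readings with a signal, 23 lay within 0.05 cycles of a whole number, so that these differences come in steps of about 1 cycle, and a value of −1.95 is 2 such steps.

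**Figure D2:**
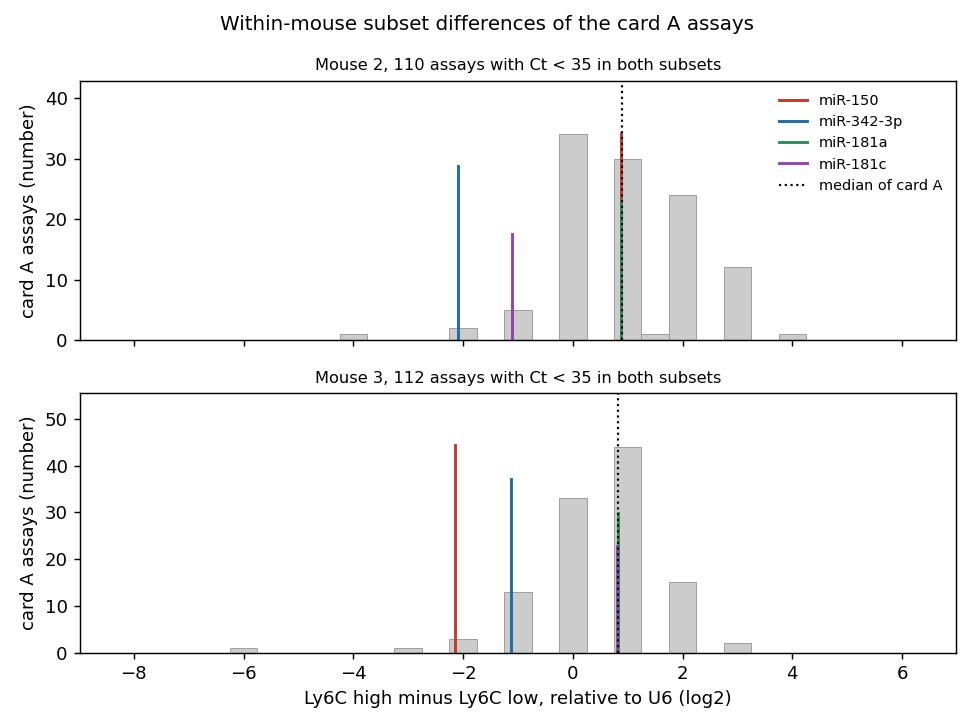
Subset differences (Ly6C high minus Ly6C low, log2, relative to U6, horizontal axis) for the card A assays with a Ct under 35 in both samples of mouse 2 (110 assays) and mouse 3 (112 assays), with the number of assays per bin on the vertical axis, coloured lines for 4 members (their heights carry no value) and a dotted line for the median. MiR-342-3p lies left of the median in both mice (−2.10 and −1.12), miR-181a lies on it, and miR-150 lies on it in mouse 2 (0.88, where it shares its place with miR-181a) and left of it in mouse 3 (−2.14).

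The order of assays within a sample needs no reference at all. By Ct, miR-342-3p held rank 12 in each Ly6C low sample, of 127, 146 and 115 card A assays with a Ct under 35 in mice 1, 2 and 3. It held rank 27 of 112 in the mouse 2 Ly6C high sample and rank 20 of 129 in that of mouse 3. The rank of miR-342-3p was thus steady in Ly6C low monocytes and lower in both Ly6C high samples in which it was read. MiR-150 held ranks 10, 10 and 11 in the Ly6C low samples. In Ly6C high monocytes it held, in mice 1, 2 and 3, ranks 61 of 109, 9 of 112 and 30 of 129. Its rank in mouse 2 was next to those of Ly6C low monocytes, and in mice 1 and 3 it was further from them. MiR-181a held ranks 37, 38 and 32 in the Ly6C low samples, and 36 and 32 in Ly6C high monocytes of mice 2 and 3, which lay within the range of the Ly6C low ranks. It held rank 17 on the deviating card. MiR-181c held ranks 75, 94 and 87 in the Ly6C low samples, and 109 of 112 and 79 of 129 in Ly6C high monocytes of mice 2 and 3. MiR-342-5p, where it was read, held ranks 102 of 127 and 126 of 146.

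Subtracting the Ct of 1 member from that of another in the same sample also removes U6. The Ct of miR-342-3p minus that of miR-150 was 0.04, 0.03 and 0.00 cycles in the Ly6C low samples of mice 1, 2 and 3. In Ly6C high monocytes it was, in mice 2 and 3, 3.02 and −1.02 cycles. Read in steps of about 1 cycle, the 2 assays thus kept the same distance in all 3 Ly6C low samples. In these Ly6C high samples they departed from it in opposite directions, in mouse 3 by only about 1 step. The Ct of miR-342-3p minus that of miR-181a was −3.98, −3.95 and −2.98 cycles in the Ly6C low samples and −0.98 and −1.03 cycles in Ly6C high monocytes of mice 2 and 3. The groups did not overlap, and within mice 2 and 3 this Ct difference was greater in Ly6C high monocytes by 2.97 and 1.95 cycles. The Ct of miR-181c minus that of miR-181a was 3.99, 4.05 and 4.94 cycles in the Ly6C low samples and 6.03 and 4.97 cycles in these Ly6C high samples. The gap between 4.97 and 4.94 is far under the reading step of about 1 cycle, so these groups are not separated at that resolution. In the mouse 1 Ly6C high sample, the Ct of miR-342-3p, listed at 40, lay 10.02 cycles above that of miR-150 and 15.01 above that of miR-181a. In the 5 samples without it, 3 of the 6 pairs among the 4 members did not overlap between the subsets, counting that of miR-181a and miR-181c. Among all 3655 pairs of the 86 card A assays read in these 5 samples, 34.6% did not, so the members' share is not read as a property of theirs.

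Over the whole set of tested assays, limma found 0 of the 4 tested members and 0 of 201 assays (0%) at an adjusted p of 0.05 or less. Without adjustment, 2 of the 201 had a p under 0.05, miR-146a and miR-1905 (the latter named after its values were seen), and 4 did in an ordinary linear model, these and, likewise named afterwards, miR-25 and miR-130b. None of the 4 tested members was among them. With all 6 samples, 1 of the 4, miR-342-3p, had every Ly6C high value below every Ly6C low value, beside 2.49% of all tested assays, and 0 of the 4 had values that all lay above, beside 2.99%. Without the mouse 1 Ly6C high sample, miR-342-3p was 1 of 4 assays among 86 (4.65%) with lower Ly6C high values and no overlap, together with miR-146a, miR-29a and miR-21. Except for miR-146a, the nearest values of the subsets were apart by less than the step of the readings. These were −2.35 against −2.06 for miR-342-3p, −2.31 against −2.13 for miR-29a and −0.19 against −0.17 for miR-21. Higher Ly6C high values without overlap were found for 33.7% of these 86 assays and for 0 of the 4 members, where miR-181a missed by a gap (−4.21 against −4.20) far under the step of the readings. In both mice 2 and 3, miR-342-3p was lower in Ly6C high monocytes, as were 22.1% of these assays, and miR-181a was higher, as were 43%. Most of these lower assays differed by less than a step in at least 1 mouse. Counting only log2 differences over 0.5 in size in both mice, a limit chosen after the values were seen, left 4 lower assays (4.65%), again miR-342-3p, miR-146a, miR-29a and miR-21, and kept the higher share at 43%. The median log2 difference of the 4 tested members was −2.65, beside −1.14 over the 127 tested assays of card A. Without the mouse 1 Ly6C high sample it was −0.38, beside 0.89. There 1 member was higher and 3 were lower, beside 100 higher and 27 lower among the 127 assays. Of these 3 members, miR-150 and miR-181c differed in direction between mice 2 and 3.

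The mature sequences show which members share a seed. They were taken from RefSeq (GRCm38.p6) for 4 of the 5 members and are printed 5′ to 3′ with the seed, bases 2 to 8, in capitals.
miR-342-3p: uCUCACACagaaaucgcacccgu
miR-342-5p: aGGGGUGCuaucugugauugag
miR-181a: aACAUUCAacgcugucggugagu
miR-181c: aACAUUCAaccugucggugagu
MiR-342-3p lies at chr12:108658680-108658702 and miR-342-5p at chr12:108658638-108658659, both on the plus strand and within the span of the protein-coding gene *Evl*. MiR-181a is encoded at chr1:137966468-137966490 and at chr2:38852741-38852763, both on the plus strand, the latter within the span of *Nr6a1*, and miR-181c at chr8:84178924-84178945 on the minus strand. MiR-181a and miR-181c have the same seed, which among 1679 mature miRNA names of the table is shared only with miR-181b and miR-181d. The seeds of miR-342-3p and of miR-342-5p each belong to 1 name. MiR-181a (23 bases) and miR-181c (22 bases) share 10 bases from the 5′ end and 12 from the 3′ end, and removing the base at position 11 of miR-181a, counted from the 5′ end, gives miR-181c. How far either assay reads the other form was not tested. Despite the shared seed, their U6-scaled log2 differences were unlike in mouse 2 (0.87 for miR-181a and −1.11 for miR-181c) and alike in mouse 3 (0.83 and 0.81).

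To see which assays moved most like each member, values were centred over the samples in which both were read, at least 5, and compared by their mean absolute log2 distance. MiR-181a was matched most closely by miR-20a and miR-328, at 0.0085 and 0.0088 over 5 samples, beside a median distance of 0.81 over 90 candidates. Both had no signal in the mouse 1 Ly6C high sample, and with that sample left out for every candidate the same assays led, the median distance was 0.48 and 7 of 85 candidates were within 0.05, as readings in whole cycles allow. MiR-342-3p was nearest to miR-29a and miR-652, at 0.47 and 0.63 (median distance 1.27). MiR-181c was nearest to miR-652 and miR-15a, at 0.30 and 0.33 (median distance 0.73). MiR-150 had no close match, with miR-195 at 0.73 and miR-451 at 0.80 (median distance 1.61), and with miR-140 at 0.72 and miR-26b at 0.73 (median distance 1.27) without the mouse 1 Ly6C high sample.

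Among the other cell types that a monocyte sample may hold, lymphocytes could be followed only through the members and through 18 further miRNAs with known roles in B or T cells, none of them particular to lymphocytes. All 18 were tested, 0 passed the adjusted threshold in limma, and 1, miR-146a, had an unadjusted p under 0.05. Over all samples 4 were higher and 14 lower in the Ly6C high group, with a median log2 difference of −1.30, beside −1.14 on card A. With the mouse 1 Ly6C high sample left out, Ly6C high monocytes had more of 13 and less of 5, where 100 of the 127 tested card A assays were higher (78.7%), with a median log2 difference of 0.38, beside 0.89 on card A. Summed, they reached 1964% and 563% of the U6 level in Ly6C high monocytes of mice 2 and 3, led by miR-16 and miR-24, and 974%, 2985% and 748% in the Ly6C low samples of mice 1, 2 and 3, led by miR-146a. In the mouse 1 Ly6C high sample, 11 of the 18 were read, at 298%, led by miR-21. The 5 members together reached 189% in the mouse 2 Ly6C high sample, led by miR-150, and 22.0% in that of mouse 3, led by miR-342-3p. In the Ly6C low samples they reached 91.7%, 177% and 50.9%, led by miR-150 and miR-342-3p, which were read within 0.05 cycles of each other, and in the mouse 1 Ly6C high sample they reached 20.6%, led by miR-181a. Such sums add assays that may amplify unequally and follow their most abundant member. The lower sums of the 18 miRNAs in the Ly6C high samples of these 2 mice rested on miR-146a. Without it, a choice made after its values were seen, the sums were 1883% (Ly6C high) and 1589% (Ly6C low) in mouse 2 and 560.1% and 553% in mouse 3, so that the direction turned in mouse 2 and the levels were close in mouse 3. The part that lymphocytes in the sorted samples have in the values of miR-150 and miR-342-3p was not tested.

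The myeloid and pan-leukocyte markers miR-223, miR-142-3p and miR-142-5p were all 3 read in 5 samples, led by miR-223. They summed to 814% and 1496% of the U6 level in Ly6C high monocytes of mice 2 and 3 and to 268%, 522% and 883% in the Ly6C low samples. The sum followed miR-223, with log2 differences of 0.91 and 0.84 within mice 2 and 3, close to the median of the card. The differences of miR-142-3p (−0.10 and −0.14) and miR-142-5p (−0.09 and −0.17) were well under the step of about 1 cycle and give no direction, and without the mouse 1 Ly6C high sample the subset means differed by 0.06 and 0.22. Of 3 erythroid markers, miR-144 and miR-486 had no signal in any sample, and miR-451 reached 0.314% and 0.0429% in these Ly6C high samples and 0.0443%, 0.0849% and 0.047% in the Ly6C low samples. MiR-451 and miR-150 both had their highest U6-scaled value in the mouse 2 Ly6C high sample. So did miR-17 and miR-19b of the B or T cell list, while miR-16 and miR-24 of that list did not. On card A, U6 was read latest in the mouse 2 Ly6C high sample, at a Ct of 24.66. Of 2 platelet and endothelial markers, miR-126-3p led with sums of 1.25% and 0.337% in these Ly6C high samples and 0.174%, 0.355% and 0.0944% in the Ly6C low samples, likewise with its highest value in that sample. None of these 3 lists had a signal in the mouse 1 Ly6C high sample. Of 6 epithelial markers, 4 were read in some sample, and they summed to 162% in the mouse 1 Ly6C high sample, led by miR-200b, and to 0.61% to 2.67% elsewhere, led by miR-200c. The liver marker miR-122 reached 1.26% in the mouse 1 Ly6C high sample and at most 0.0459% elsewhere. The neuronal markers, miR-124 and miR-9, reached 5.01% there, led by miR-9, and at most 0.315%, from miR-124, elsewhere. Of 4 muscle markers, miR-133b gave 0.0788% in the mouse 1 Ly6C high sample, miR-133a gave 0.0109% in that of mouse 3, and the other samples had none. The part of these cell types in the values of the members was not tested.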

How the data were processed

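Mouse Ly6C high and Ly6C low monocyte RNA, 10 ng per sample, was assayed on TaqMan low-density arrays, and subset and mouse were taken from the labels. The authors' deposited values are raw Ct (log2 scale with the sign turned) and ΔCt, for which the authors subtracted the U6 Ct of the same sample and card (also log2). Another deposited table holds ratios between the subsets within each mouse and was not used. The software behind the Ct values is not given in the sources used here. Expression was taken as −ΔCt. The 18 control wells were left out, and the 201 of 750 miRNA assays that reached a Ct under 35 in 3 or more of the 6 samples were tested with limma 3.58.1 (lmFit, eBayes) in R 4.3.3, with Benjamini-Hochberg adjustment at 0.05 over all of them. The fit was tested on simulated data. The simulated spread was based on the Ly6C low samples, so that run does not cover the deviating card or the pairing by mouse. Undetected reactions kept their Ct of 40. Exact permutation, ranks and distances used Python 3.11.15, numpy 2.4.6, pandas 2.3.3 and scipy 1.17.1, and plots matplotlib 3.10.9.

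Named were all members, further assays named miR-150, miR-342 or miR-181, lists of cell type markers, and the 2 assays of the same card most like each member. The members and lists were chosen with earlier results of these data known. The labels give samples with the same number as 1 mouse, and their deviations from the subset means correlated at 0.317, 0.615 and 0.722 in mice 1, 2 and 3 across the 201 assays (−0.085, 0.409 and 0.41 on card A). Alternatives were other normalizations, filters and treatments of undetected reactions, an ordinary linear model, the mouse as a block, and samples or mice left out. The number of arrays limits the precision.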

Additional observations from a re-analysis of the deposited data

Results flagged for a closer look

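Outside the comparisons, the assay for the opposite strand of miR-181a-2 on card B gave a signal in 2 of the 6 samples, with a Ct of 34.98 for the mouse 1 Ly6C high sample and of 33.97 for the mouse 2 Ly6C low sample. The plant control assay, which has no target in mouse cells, was read on the same card of that Ly6C low sample at a Ct of 33.97 as well, and in the other 5 samples it is listed at 40 there. The signal in mouse 2 was therefore not above the control on its card. Its source was not tested. The opposite strand of miR-150 was listed at 40 in all 6 samples.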

How the results depend on the processing

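The number of assays past the threshold was 0 under all 18 alternatives (lowest adjusted p 0.15), with 1 to 16 assays at an unadjusted p under 0.05. Filters, the ordinary linear model and the replicate block cannot move a difference of means here, nor can the treatment of undetected reactions for miR-150 and miR-181a, which leaves 12 to 14 alternatives that can. The adjusted p ranges given are those of all 18 fits. The difference of miR-150 was negative under all 12 such alternatives (−4.62 to −0.62, adjusted p 0.493 to 0.999), as were, under all 14, those of miR-342-3p (−9.12 to −1.60, adjusted p 0.443 to 0.999) and miR-181c (−4.69 to −0.14, adjusted p 0.486 to 0.999). That of miR-342-5p, which was not fitted, was negative under 13 (−6.08 to −0.46, the latter with a floor of 35 cycles) and had no value with undetected reactions as missing. The difference of miR-181a was positive under 11 of 12 (up to 1.98, adjusted p 0.443 to 0.999) and reversed to −0.35 without normalization, which by construction leaves the U6 shift of the whole card in the values. With samples or mice left out, differences ran from −4.62 to −0.62 for miR-150, 0.85 to 1.98 for miR-181a, −4.64 to −0.14 for miR-181c, −9.12 to −1.60 for miR-342-3p and −6.08 to −2.62 for miR-342-5p. The fit with the mouse as a replicate block left the differences as they were (−6.45 for miR-342-3p, standard error 3.66) and changed no call. Without mouse 1 and with a replicate block, miR-342-3p differed by −1.61 (standard error 0.44) and miR-181a by 0.85 (standard error 0.22), both at an adjusted p of 0.443, the lowest of that fit, in which 16 assays had an unadjusted p under 0.05. A Ct limit of 32 cannot change the rank of a reaction still counted, and with it miR-181c in the Ly6C high sample of mouse 2 and miR-342-5p in the Ly6C low sample of mouse 2 were no longer ranked. Alternatives for further members were not run, as no main-strand assay of another miR-181 form was listed (the opposite strand of miR-181a-2 is outside the rule). In an alternative chosen after the data were seen, leaving miR-146a out of the summed level of the 18 miRNAs with roles in B or T cells turned its log2 difference between the subsets from −0.60 to 0.24 in mouse 2 and from −0.41 to 0.02 in mouse 3, and moved it from −1.71 to −1.08 in mouse 1.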
